A study of Saccharomyces cerevisiae S288C with 4 samples.

Results

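The histone genes of Saccharomyces cerevisiae were examined in cells lacking Tho2 and in wild-type (WT) cells. The members were chosen by symbol: the 8 core histone genes HTA1, HTB1, HTA2, HTB2, HHT1, HHF1, HHT2 and HHF2, the linker histone gene HHO1 and the H2A.Z gene HTZ1, giving 10 of the 6396 rows in the expression table. All 10 passed the filter on low counts, which left 5890 genes. Tho2 is a subunit of THO, a complex that travels with RNA polymerase II and packages nascent RNA for export. The tho2Δ strain FY254 carried tho2Δ::KanMX4 in the background of WT BY4741, so that both strains shared MATa, ura3Δ0, leu2Δ0, his3Δ1 and met15Δ0. Both were grown in YPD at 30 °C to mid-log phase, with no agent added, and total RNA was sequenced in 2 libraries per strain. The labels number them replicates 3 and 4. The deletion was examined in 1 strain. Whether the duplicates were grown as separate cultures is not stated, and a p-value then reflects just the spread of these libraries, which may be technical.

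Nucleosomes wrap DNA around an octamer of histones H2A, H2B, H3 and H4, and budding yeast encodes each of them in a pair of near-identical genes. These genes lie head to head, an H2A gene beside an H2B gene and an H3 gene beside an H4 gene, so that each divergent pair is read from one shared region. Their mRNAs accumulate in S phase, when new DNA is packaged. Outside it the HIR complex represses some of these pairs, though not all. HHO1 encodes the linker histone H1 and HTZ1 the variant H2A.Z, which is placed at promoters by the SWR1 complex.

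The libraries held 31417222 and 36989697 counts in tho2Δ cells, and 33543267 and 32401027 counts in WT cells. THO2 had 1 and 1 counts in tho2Δ libraries, against 4011 and 2457 in WT libraries, as the strain labels say. The 6 a-cell genes examined had 1242 to 42805 counts in tho2Δ libraries and 300 to 32082 in WT libraries, and of the 4 alpha-cell genes 3 had 45 to 106 counts in tho2Δ libraries and 4 to 149 in WT libraries. The other one, SAG1, had 1666 and 1552 counts in tho2Δ libraries, within the range of the a-cell genes, against 329 and 119 in WT libraries. WT replicate 4 stood apart: its scaling factor from the trimmed mean of M-values (TMM), which sets the bulk of genes equal between libraries, was 0.723, against 1.003 for WT replicate 3 and 1.18 and 1.17 for the tho2Δ libraries. The median absolute log2 difference between libraries of one strain was 0.0885 for tho2Δ and 0.233 for WT.

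The 4 regions that separate the divergent genes are shown first because they are what the partners of a pair share. The regions between the coding starts were 817 bases (HTA1-HTB1), 699 bases (HTA2-HTB2), 646 bases (HHT1-HHF1) and 676 bases (HHT2-HHF2) in build R64. The histone upstream activating sequence, known as the binding element of the activator Spt10, was searched on both strands as the letters TTCCNNNNNNTTCNC. It matched in 4 of the 4 histone regions, against 24 of all 286 divergent regions of 600 to 850 bases (8.39%). The element is named for histone promoters, so its presence in them was known in advance and is not a finding. Each match is printed below with 15 bases on either side, 5′ to 3′ on its own strand, with the match in capitals, and the coordinates are those of the match.
HTA1-HTB1, chrIV:915114-915128, plus strand: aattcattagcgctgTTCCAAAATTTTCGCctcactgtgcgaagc
HTA1-HTB1, chrIV:915137-915151, minus strand: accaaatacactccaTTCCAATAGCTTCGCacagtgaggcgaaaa
HTA2-HTB2, chrII:236108-236122, minus strand: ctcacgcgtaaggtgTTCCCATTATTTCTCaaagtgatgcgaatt
HHT1-HHF1, chrII:255944-255958, minus strand: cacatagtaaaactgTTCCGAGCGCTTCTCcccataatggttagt
HHT2-HHF2, chrXIV:576346-576360, minus strand: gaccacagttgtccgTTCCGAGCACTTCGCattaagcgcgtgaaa

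HTA1-HTB1 was the one region with a pair of matches, on opposite strands. They lay 401 and 378 bases from the coding start of HTA1, and 401 and 424 bases from that of HTB1. In the other regions the match lay 369 bases from HTB2, 372 bases from HHT1 and 366 bases from HHF2. From their partners it lay 315 bases (HTA2), 259 bases (HHF1) and 295 bases (HHT2). The windows of 600 bases upstream of HHO1 and HTZ1 held none, against 208 of 5999 genes with a match in such a window (3.47%). The letters CGCGAAA, the only form of the SBF element searched, matched in 2 of the 4 regions, with 2 matches in HTA1-HTB1, against 8.74% of the divergent regions. Those of the MBF element, ACGCGT, matched in HTA2-HTB2 alone among the 4, against 8.39%. SBF and MBF are the factors that turn on G1/S genes. No match of one motif overlapped a match of another in these regions. A match is a description of the letters and not a measurement of binding.

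**Figure D1:**
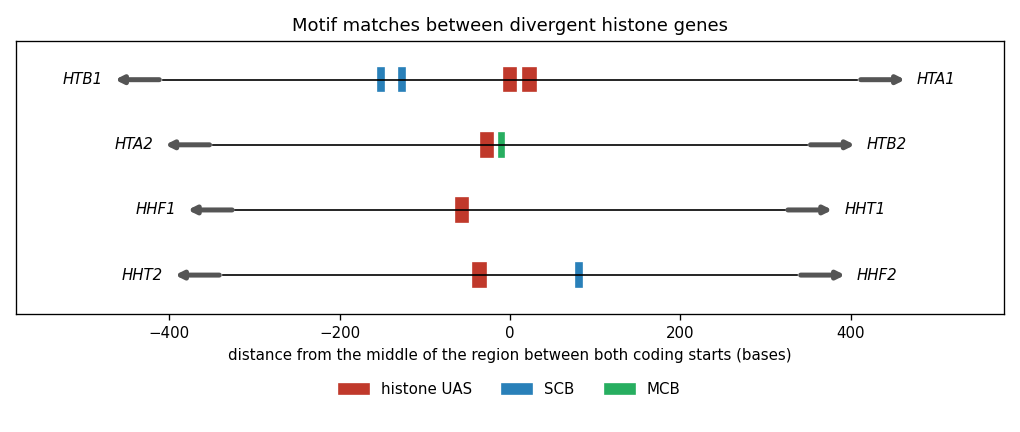
Each horizontal line is the region between the coding starts of a divergent histone pair, drawn to scale in bases from its middle, with arrows toward the genes and boxes for motif matches. The histone UAS matches (red) lie near the middle in all 4 regions, with 2 in HTA1-HTB1, and SBF element (SCB, blue) and MBF element (MCB, green) matches lie in 3 of them.

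The near-identity of the copies bears on how far reads can be given to 1 copy. H4 was the most alike pair, with 97.4% of coding bases identical between HHF1 and HHF2 (8 of 312 different) and no amino acid difference, and H2B the least alike, with 87.9% identical (48 of 396 different) and 4 amino acid differences. Identity was 93.7% for H2A (2 amino acid differences) and 93.2% for H3 (none). The longest run that both copies share is printed in capitals for the extremes, H4 (80 bases) and H2B (35 bases), on the coding strand of the first copy, with 15 bases on either side.
HHF1, chrII:255500-255609, minus strand: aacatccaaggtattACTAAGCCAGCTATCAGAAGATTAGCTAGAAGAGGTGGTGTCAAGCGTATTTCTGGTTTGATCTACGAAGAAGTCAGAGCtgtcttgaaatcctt
HTB1, chrIV:914468-914532, minus strand: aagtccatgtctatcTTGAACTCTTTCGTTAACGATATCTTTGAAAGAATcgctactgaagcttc

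Of all stretches of 50 bases in the first copy, 21.3% in H4, 12.2% in H3, 4.57% in H2A and 0 in H2B were found at the same place in the other copy. No source used here states the read length or the treatment of reads that fit both copies, so values of single H2A, H3 and H4 copies, and the shares and ratios built on them, are uncertain to that extent, and the copies were also summed. None of the 10 members overlapped another annotated gene. Their coding models are single exons of 312 to 777 bases without UTRs.

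Of the 10 histone genes, 4 passed the test and all 4 were lower: HTA1, HTA2, HHT1 and HHF2. This compares with 19.1% of all 5890 genes tested that were called lower and 18.8% called higher (edgeR quasi-likelihood test on TMM-scaled counts, Benjamini-Hochberg adjusted p under 0.05). The median log2 fold change was -0.43 over the members and 0.01 over all genes. The 10 fitted values were all negative with TMM, at the 10.3 to 37.4 percentiles of all genes, but only 4 of 10 were negative with library totals alone and 6 of 10 with TPM, where the median of all genes moved to 0.45 and 0.39. Relative to that median the members stood at -0.44 with TMM, -0.43 with library totals and -0.41 with TPM (pseudocount 1), with all 10 below the median of all genes in each. In bulk RNA, fewer cells in S phase and less histone mRNA per cell cannot be told apart.

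The 8 core genes together gave 1250 and 1273 CPM (counts scaled to a common library size with the TMM factors) in tho2Δ libraries, against 1847 and 1837 in WT libraries. The duplicates of each strain lay close together on this scale and the strains far apart. Single genes, however, differed between the WT libraries in opposite directions that offset each other in the sum. In WT replicates 3 and 4 HTB2 had 261 and 165 CPM, and HHF1 160 and 302 CPM. As a share of all TPM, the core genes made up 0.323% and 0.333% in tho2Δ libraries, against 0.418% and 0.321% in WT libraries. On this scale the groups overlapped, because WT replicate 4 lay below both tho2Δ libraries.

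HTA1, one of the H2A genes (YDR225W, chromosome IV, 915530 to 915928, plus strand), had the lowest adjusted p of the members. It had 211 and 213 CPM in tho2Δ libraries, against 410 and 363 CPM in WT libraries. The groups were far apart, and HTA1 was 1.82-fold lower in tho2Δ cells (log2 fold change -0.86 ± 0.12 SE, adjusted p = 0.00563 with edgeR). On TPM, which corrects for length but not for the makeup of the library, HTA1 stood at 519 and 532 in tho2Δ libraries and at 886 and 590 in WT libraries, still without overlap. Its divergent partner HTB1, an H2B gene (YDR224C, chromosome IV, 914317 to 914712, minus strand), had 65.2 and 71.2 CPM in tho2Δ libraries, against 85.3 and 68.7 CPM in WT libraries. These ranges overlapped, and the HTB1 difference did not pass the test (log2 -0.18 ± 0.14 SE, adjusted p = 0.365 with edgeR, and 0.24 with library totals).

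**Figure D2:**
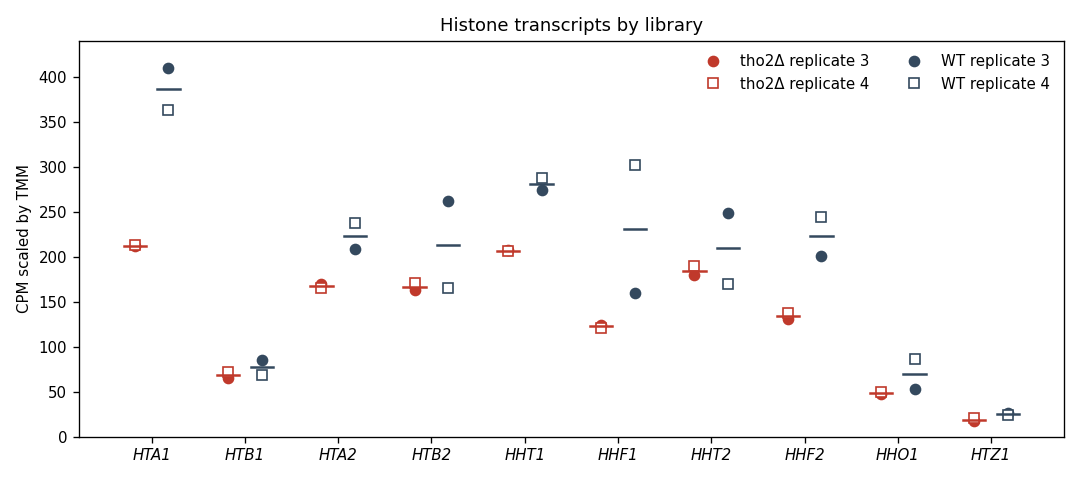
Points are the CPM of each histone gene in each library, scaled by TMM, on a linear axis from 0, with tho2Δ (red) left of WT (dark) and a bar at each mean (n = 2). HTA1 had 211 and 213 CPM in tho2Δ libraries and 410 and 363 CPM in WT libraries, whereas HHF1, HTB2 and HHT2 were widely spread between the WT libraries.

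The partners of the first pair therefore stood in different proportion. HTA1 exceeded HTB1 by 3.21-fold and 2.97-fold in tho2Δ libraries, against 4.76-fold and 5.25-fold in WT libraries, as a ratio of TPM within a library that no scaling can move. The difference was -0.69 on the log2 scale, beyond the spread of the duplicates (SD 0.08 in tho2Δ and 0.10 in WT). A comparison of 2 libraries with 2 cannot reach p = 0.05: the exact two-sided permutation p was 0.333, the smallest this design allows. Leaving out any 1 library kept it between -0.76 and -0.62.

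HTA2, the other H2A gene (YBL003C, chromosome II, 235394 to 235792, minus strand), had 170 and 165 CPM in tho2Δ libraries, against 208 and 237 CPM in WT libraries. The groups did not overlap, and HTA2 passed the test by a small margin (log2 -0.41 ± 0.12 SE, adjusted p = 0.0416 with edgeR), with a log2 value of 0.048 under library totals. On TPM HTA2 stood at 418 and 411 in tho2Δ libraries and at 450 and 385 in WT libraries, which overlap. Its partner HTB2, the other H2B gene (YBL002W, chromosome II, 236492 to 236887, plus strand), had 163 and 170 CPM in tho2Δ libraries, against 261 and 165 CPM in WT libraries. WT replicate 3 was high and WT replicate 4 within the tho2Δ range, and HTB2 did not pass (log2 -0.36 ± 0.23 SE, adjusted p = 0.26 with edgeR, and 0.037 with library totals).

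HTA2 made up a larger share of H2A mRNA in both tho2Δ libraries than in either WT library, with 44.6% and 43.6% of H2A TPM in tho2Δ libraries, against 33.7% and 39.5% in WT libraries. The groups did not overlap and differed by 7.49 percentage points (SD 0.701 in tho2Δ and 4.11 in WT, exact two-sided permutation p = 0.333, the smallest possible), or by 4.58 without WT replicate 3 and 10.4 without WT replicate 4. The ratio of the HTA2-HTB2 pair to the HTA1-HTB1 pair was 1.21 and 1.18 in tho2Δ libraries, against 0.951 and 0.932 in WT libraries. The HTA2-HTB2 pair was thus the more abundant one in tho2Δ libraries and the less abundant one in WT libraries, a log2 difference of 0.34 (exact permutation p = 0.333).

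HHT1, an H3 gene (YBR010W, chromosome II, 256331 to 256741, plus strand), had 207 and 206 CPM in tho2Δ libraries, against 274 and 288 CPM in WT libraries. All 4 values were tight within their strain, and HHT1 passed the test (log2 -0.44 ± 0.11 SE, adjusted p = 0.0273 with edgeR), while library totals gave 0.0078. Its partner HHF1, an H4 gene (YBR009C, chromosome II, 255373 to 255684, minus strand), had 124 and 120 CPM in tho2Δ libraries, against 160 and 302 CPM in WT libraries. The groups did not overlap, but WT replicate 4 exceeded WT replicate 3 by 0.92 on the log2 scale. HHF1 had the most negative fitted value of the members and did not pass (log2 -0.91 ± 0.30 SE, adjusted p = 0.0598 with edgeR). Its estimate was -1.32 without WT replicate 3 and -0.39 without WT replicate 4.

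HHT2, the other H3 gene (YNL031C, chromosome XIV, 575640 to 576050, minus strand), had 179 and 190 CPM in tho2Δ libraries, against 248 and 170 CPM in WT libraries. The WT values enclosed the tho2Δ values, and HHT2 did not pass (log2 -0.18 ± 0.20 SE, adjusted p = 0.497 with edgeR, and 0.22 with library totals). Its partner HHF2, the other H4 gene (YNL030W, chromosome XIV, 576727 to 577038, plus strand), had 130 and 137 CPM in tho2Δ libraries, against 201 and 244 CPM in WT libraries. HHF2 was 1.66-fold lower in tho2Δ cells without overlap (log2 -0.73 ± 0.13 SE, adjusted p = 0.0111 with edgeR, and -0.27 with library totals). HTA1, HHF1 and HHF2 were the members whose groups stayed apart on TPM as well, 3 of 10 against 15.8% of all genes. With CPM the groups stood apart, tho2Δ below WT, for 7 of 10 members, against 36.3% of all genes.

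The H3-H4 pairs kept no clear order between strains. The HHT2-HHF2 pair stood to the HHT1-HHF1 pair as 0.946 and 1.01 in tho2Δ libraries, against 1.06 and 0.717 in WT libraries, which overlap. HHT1 over HHF1 was 1.26 and 1.299 in tho2Δ libraries, against 1.303 and 0.724 in WT libraries. HHT2 over HHF2 was 1.04 and 1.05 in tho2Δ libraries, against 0.940 and 0.527 in WT libraries, without overlap, but the log2 difference of 0.57 was 0.15 without WT replicate 4. HTA2 over HTB2 was 1.03 and 0.960 in tho2Δ libraries, against 0.790 and 1.43 in WT libraries. WT replicate 4 was thus low in the H3 gene relative to the H4 gene in both H3-H4 pairs.

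**Figure D3:**
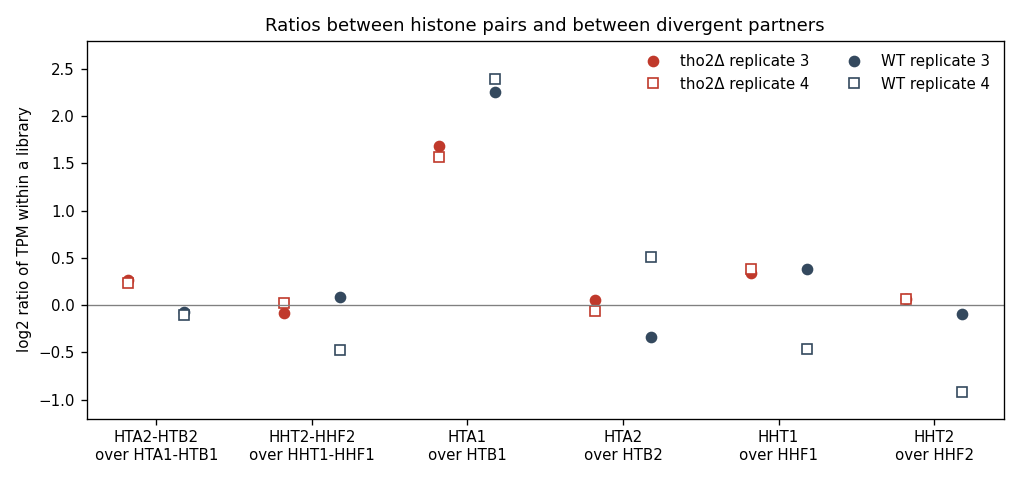
Points are log2 ratios of TPM within each library for the pairs and for the divergent partners, with tho2Δ (red) left of WT (dark) and circles for replicate 3, squares for replicate 4. HTA1 over HTB1 separates the strains (3.21 and 2.97 in tho2Δ, 4.76 and 5.25 in WT as plain ratios), while the H3-H4 ratios are spread by WT replicate 4.

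The shares of HTB2 in H2B, HHT2 in H3 and HHF2 in H4 overlapped between strains. HTB2 made up 71.4% and 70.5% of H2B TPM in tho2Δ libraries, against 75.4% and 70.6% in WT libraries. HHT2 made up 46.4% and 47.9% of H3 TPM in tho2Δ libraries, against 47.6% and 37.1% in WT libraries. HHF2 made up 51.2% and 53.2% of H4 TPM in tho2Δ libraries, against 55.7% and 44.7% in WT libraries. HTA1, HTB2 and HHT1 were thus the larger source of H2A, H2B and H3 in every library, whereas the larger H4 source was not the same in both WT libraries.

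Summing the copies removes the question of which copy a shared read came from. It leaves the question of whether such reads were dropped or counted at both copies. H2A had 381 and 378 CPM in tho2Δ libraries, against 618 and 600 CPM in WT libraries. It was 1.60-fold lower in tho2Δ cells (log2 -0.68 ± 0.13 SE, adjusted p = 0.0123 with edgeR, and -0.24 with library totals). H4 had 254 and 258 CPM in tho2Δ libraries, against 360 and 546 CPM in WT libraries. It also passed (log2 -0.82 ± 0.22 SE, adjusted p = 0.0343 with edgeR, and -0.33 with library totals). Its estimate was -1.09 without WT replicate 3 and -0.49 without WT replicate 4. H3 had 386 and 396 CPM in tho2Δ libraries, against 522 and 457 CPM in WT libraries, without overlap and without passing (log2 -0.33 ± 0.14 SE, adjusted p = 0.113 with edgeR, and 0.10 with library totals). H2B had 228 and 242 CPM in tho2Δ libraries, against 347 and 234 CPM in WT libraries, and did not pass (log2 -0.31 ± 0.21 SE, adjusted p = 0.285 with edgeR, and 0.094 with library totals). In this fit 19.1% of all rows were called lower.

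The balance between the histones can be read within a library. H2A and H2B together stood to H3 and H4 as 0.872 and 0.871 in tho2Δ libraries, against 0.999 and 0.732 in WT libraries, which overlap. H2A over H2B was 1.66 and 1.55 in tho2Δ libraries, against 1.77 and 2.55 in WT libraries, and H3 over H4 was 1.15 and 1.17 in tho2Δ libraries, against 1.10 and 0.636 in WT libraries. Both of these did not overlap between strains, at an exact permutation p of 0.333, but WT replicate 3 lay close to the tho2Δ libraries in both and the gap came mostly from WT replicate 4. In all, 15 shares and ratios within libraries were compared and 7 did not overlap between strains, with a lowest Benjamini-Hochberg adjusted exact p of 0.714.

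HHO1 (YPL127C, chromosome XVI, 308828 to 309604, minus strand) had 47.7 and 49.6 CPM in tho2Δ libraries, against 53.3 and 86.5 CPM in WT libraries. The groups did not overlap, but WT replicate 3 lay close above the tho2Δ libraries and HHO1 did not pass (log2 -0.52 ± 0.24 SE, adjusted p = 0.133 with edgeR). Its estimate was -0.85 without WT replicate 3 and -0.14 without WT replicate 4. HTZ1 (YOL012C, chromosome XV, 303579 to 303983, minus strand) had 17.7 and 20.1 CPM in tho2Δ libraries, against 26.2 and 23.5 CPM in WT libraries. HTZ1 also stood apart without passing (log2 -0.40 ± 0.13 SE, adjusted p = 0.0643 with edgeR, and 0.035 with library totals). Relative to H2A, HTZ1 stood at 0.0456 and 0.0523 in tho2Δ libraries, against 0.0419 and 0.0385 in WT libraries, without overlap.

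**Figure D4:**
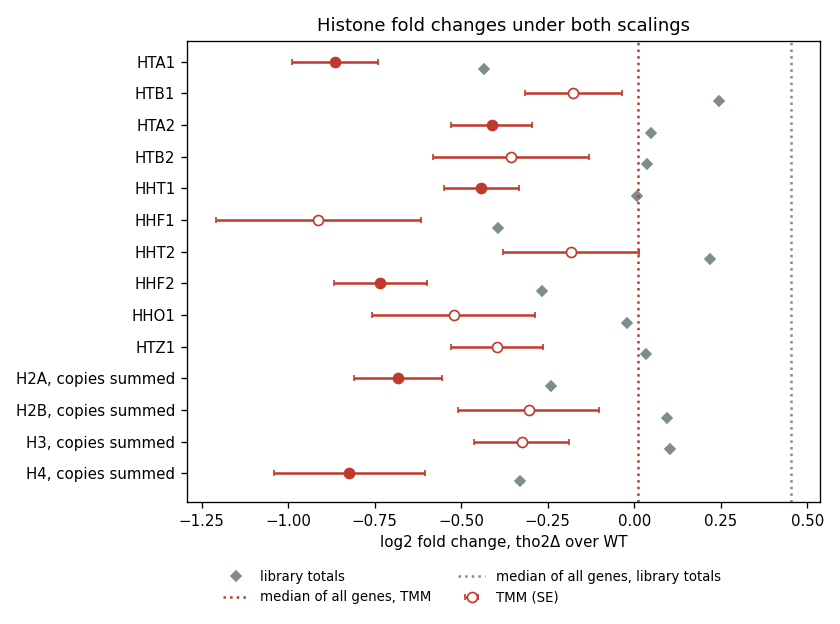
Circles are log2 fold changes of tho2Δ over WT with TMM and their SE, filled where the adjusted p was under 0.05, grey diamonds are the estimates with library totals alone, and dotted lines mark the median of all genes under each scaling. All 10 genes and 4 sums lie left of their own median, and HTA1, HHF1, HHF2, HHO1, H2A and H4 lie left of 0 under both scalings.

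Levels per length, as TPM, ordered the members. In tho2Δ cells HTA1 was highest at 526 ± 9.02 TPM (SD, n = 2), followed by HHT1 at 497 ± 3.64, HHT2 at 443 ± 22.3, HHF2 at 424 ± 19.7, HTB2 at 416 ± 17.3, HTA2 at 414 ± 4.68 and HHF1 at 388 ± 4.67. HTB1 followed at 170 ± 12.3 TPM, then HHO1 at 61.9 ± 2.36 and HTZ1 at 46.1 ± 4.67. Neighbours in this order from HHT2 to HTA2 overlapped between libraries, and the other neighbours did not. In WT cells HTA1 was highest at 738 ± 209 TPM, and the 7 core genes from HTA1 to HHT2 (394 ± 180 TPM) each overlapped their neighbours, with HTB1 (149 ± 52.1), HHO1 (65.7 ± 9.12) and HTZ1 (46.7 ± 13.0) below them without overlap. HTB1 was the least abundant core histone gene in every library.

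The WT libraries differed from each other unevenly over the members. The log2 CPM of WT replicate 4 minus that of WT replicate 3 was -0.67 for HTB2, -0.55 for HHT2 and -0.31 for HTB1, but 0.92 for HHF1 and 0.70 for HHO1, and -0.16 for HTZ1. Between the tho2Δ libraries no member differed by more than 0.19. The calls moved with single libraries. With 1 library left out of a strain, the spread comes from the remaining pair of the other strain, and the lone library is assumed to vary like that pair. Without WT replicate 3, 6 members were called lower, against 31.3% of all genes. Without WT replicate 4, 9 were called lower, HHO1 alone excepted, against 27.8%. Without tho2Δ replicate 3 or tho2Δ replicate 4, 0 members were called (2 at an unadjusted p under 0.05 in each), against 3.90% and 3.34% of all genes.

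The scaling moved the calls as well. With library totals alone 0 members were called and 0 had an unadjusted p under 0.05, against 5.14% of all genes called lower, and 0 members were called with limma on log2(TPM + 1), against 6.05%. Higher calls made up 49.6% of all calls with TMM and 79.9% with library totals. DESeq2 called 5 members, adding HHF1, against 20.7% of all genes.

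Of the 12 nearest neighbours of the pairs, HHO1 and HTZ1, 3 were lower and 2 higher, shares near the 19.1% and 18.8% of all genes (adjusted p of 0.00303 to 0.0269 with edgeR). Beside HTA1-HTB1, CRF1, a corepressor of ribosomal protein genes, was higher in tho2Δ cells at 6.41 and 7.03 CPM, against 2.91 and 1.88 CPM in WT (log2 1.47), and ADK1, adenylate kinase, was lower at 347 and 345 CPM, against 538 and 869 CPM in WT (log2 -1.02). UTP20, a ribosome assembly factor 276 bases from the HTA2-HTB2 pair, was lower at 334 and 313 CPM, against 663 and 672 CPM in WT (log2 -1.05). NAN1, another ribosome assembly factor, lay beside HHO1 and was lower at 80.3 and 74.5 CPM, against 174 and 150 CPM in WT (log2 -1.07). PLB3, a phospholipase beside HTZ1, was higher at 372 and 342 CPM, against 197 and 199 CPM in WT (log2 0.85). The other 7 neighbours did not pass, with log2 values of -0.44 (IPP1) to 0.39 (ECM15), and the medians of whole chromosomes lay between -0.08 and 0.14.

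The genes whose 4 libraries lay nearest to the mean profile of the 8 core histone genes, by distance between centred log2 CPM over 5590 candidates, were EBS1, TNA1, MET31, SUB2 and EUG1, at distances of 0.0263 to 0.0513. The members themselves lay 0.0897 (HHT1) to 0.757 (HHF1) from that mean. SUB2, the RNA helicase that works with THO in mRNA export, had 635 and 633 CPM in tho2Δ libraries, against 895 and 902 CPM in WT libraries.

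The regulators of histone genes were spread about the bulk of genes, with 3 of 20 lower, 1 higher and a median of -0.07. Over all genes 19.1% were called lower and 18.8% higher. With library totals 0 regulators were called lower and 2 higher. HIR1 and HIR3, subunits of the HIR repressor of histone genes, were lower in tho2Δ cells. HIR1 had 23.5 and 24.5 CPM in tho2Δ libraries, against 32.9 and 38.5 CPM in WT libraries (log2 -0.57), and HIR3 had 49.0 and 46.3 CPM, against 65.6 and 70.8 CPM (log2 -0.52). RSC8, a subunit of the RSC remodeler, was also lower (log2 -0.57). SWI4, the DNA-binding subunit of SBF, was the one regulator called higher with TMM. It had 30.0 and 32.4 CPM in tho2Δ libraries, against 18.4 and 17.0 CPM in WT libraries (log2 0.82).

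The histone chaperones and chromatin assembly factors had 8 of 23 lower, against 19.1% of all genes, 0 higher (1 at an unadjusted p under 0.05, and 0 with DESeq2) and a median of -0.30. NHP6A, an HMG protein that works with FACT, had 65.0 and 64.9 CPM in tho2Δ libraries, against 99.7 and 99.4 CPM in WT libraries (log2 -0.62). MSI1 (log2 -0.65) and CAC2 (log2 -0.58), subunits of the CAF-1 assembly complex, the H3-H4 chaperone SPT6 (log2 -0.58), and FPR4 (log2 -0.84), a nucleolar prolyl isomerase with chaperone activity, were among those lower. With TMM 21 of the 23 values were negative, but 10 of 23 with library totals, where 0 were called lower and the list's median was 0.11 against 0.45 over all genes.

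Factors that place or remove H2A.Z gave 0 of 23 called (6 lower and 1 higher at an unadjusted p under 0.05, and 1 lower with DESeq2), with a median of -0.19 and 19 negative values with TMM, against 3 negative with library totals. Over all genes 19.1% were called lower and 18.8% higher. The number of these factors called rose when a WT library was left out, as did the number called over all genes. The 3 genes of the centromeric H3 variant and its partners gave 0 called (1 lower at an unadjusted p under 0.05, 0 with DESeq2), with a median of -0.07.

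Genes for histone mRNA turnover and removal of excess histones had 4 of 15 lower, 2 higher and a median of -0.23. Over all genes 19.1% were called lower and 18.8% higher. With library totals 1 of these genes was called lower and 2 higher. The 4 lower with TMM were parts of the nuclear surveillance machinery that trims and degrades RNA. AIR1, of the TRAMP complex, had 8.04 and 8.02 CPM in tho2Δ libraries, against 20.7 and 23.0 CPM in WT libraries (log2 -1.44), and TRF5, its poly(A) polymerase, had 7.74 and 8.23 CPM, against 16.4 and 22.6 CPM (log2 -1.28). RRP6, the nuclear exosome exonuclease, had 56.9 and 52.4 CPM in tho2Δ libraries, against 98.3 and 127 CPM in WT libraries (log2 -1.05). AIR2, also of TRAMP, completed the lower ones. UBC4 (log2 0.73) and UBC5 (log2 1.33), ubiquitin-conjugating enzymes that take part in excess histone degradation, were higher, UBC5 with 18.8 and 17.3 CPM in tho2Δ libraries, against 8.44 and 5.85 CPM in WT libraries.

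Among enzymes that modify histones, calls went both ways with TMM, against 19.1% of all genes called lower and 18.8% called higher. Acetylation and deacetylation genes had 2 of 29 lower (SAS2, log2 -0.71, and ADA2, log2 -0.43) and 2 higher (the deacetylase HOS3, log2 0.62, and RCO1 of the Rpd3S complex, log2 0.46), with a median of -0.01. Methylation and ubiquitination genes had 4 of 19 lower and 2 higher, with a median of -0.03. Among the lower ones were BRE2 (log2 -0.70) and SWD3 (log2 -0.59) of the Set1 complex and the H3 methylase DOT1 (log2 -0.55). The 2 higher were SET1 itself (log2 0.39) and GIS1 (log2 1.14), a zinc-finger protein of nutrient signalling. With library totals 0 genes of either list were called lower, against 5.14% of all genes. The genes called higher were then 1 in the acetylation list and 2 in the methylation list.

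Cell cycle transcripts were listed beside the histones because histone mRNA follows the cycle. G1/S transcripts had 5 of 18 lower, against 19.1% of all genes and 0 of 18 with library totals or TPM, 0 higher (0 at an unadjusted p under 0.05 and 0 with DESeq2) and a median of -0.21. RNR1, the large subunit of ribonucleotide reductase, had 194 and 197 CPM in tho2Δ libraries, against 525 and 381 CPM in WT libraries (log2 -1.22), followed by the flap endonuclease gene RAD27 (log2 -0.94) and the cohesin genes SMC3 (log2 -0.88) and MCD1 (log2 -0.67). G2/M transcripts had 3 of 13 higher, against 18.8% of all genes, and a median of 0.31. These were the kinase genes DBF2 (log2 0.59) and KIN3 (log2 0.98) and the activator gene SWI5 (log2 0.55). Of the 13, 0 were lower (0 at an unadjusted p under 0.05, and 0 with DESeq2). M/G1 transcripts had 8 of 17 lower, against 19.1% of all genes, and a median of -0.42. The lower ones were led by the daughter-cell wall genes DSE2 (log2 -1.48), DSE1 (log2 -1.33) and SCW11 (log2 -1.55). The cell wall gene PIR3 (log2 3.36) was the 1 higher. With library totals the medians were 0.23 for G1/S, 0.75 for G2/M and 0.06 for M/G1, against 0.45 over all genes. The part of the cell cycle in the histone values was not tested. Over all lists 45 of 172 genes were called (26.2%), against 38.0% of all genes, but 7 without tho2Δ replicate 3, 5 without tho2Δ replicate 4, 91 without WT replicate 3, 73 without WT replicate 4 and 16 with library totals.

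**Figure D5:**
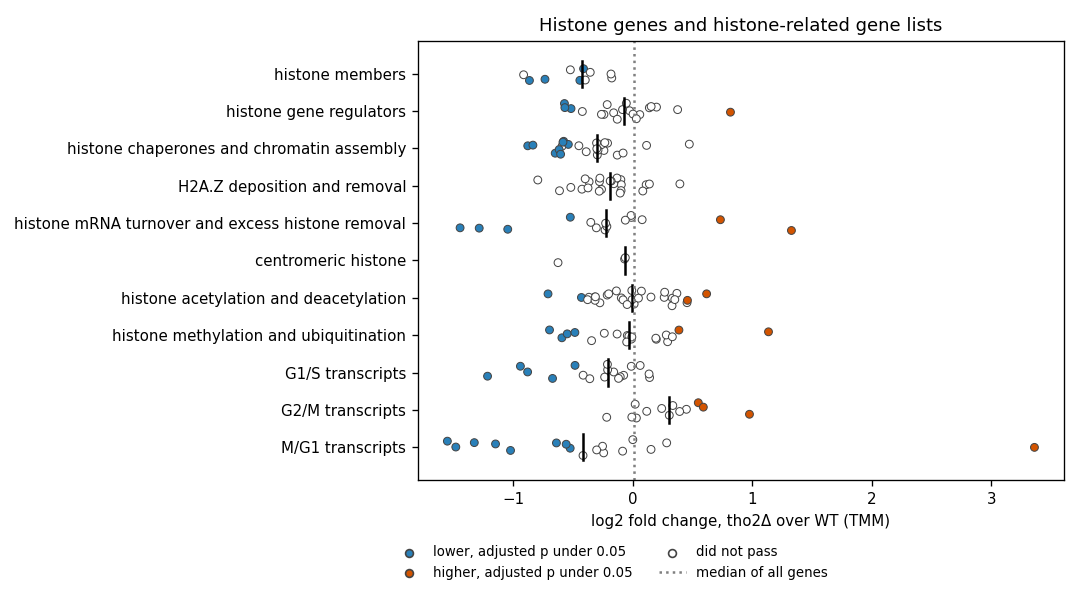
Each point is the log2 fold change of 1 gene, tho2Δ over WT with TMM, for the 10 histone genes and the 10 lists, colored where the adjusted p was under 0.05, with a bar at each list's median and a dotted line at the median of all genes. The histone median is -0.43, chaperones are at -0.30, M/G1 transcripts at -0.42 and G2/M transcripts at 0.31.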

How the data were processed

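Total RNA of tho2Δ and WT cells was sequenced on an Illumina NovaSeq. The labels name a column kit and the study's methods hot phenol for the extraction. Build R64, StringTie 1.3.4d, HISAT2 2.1.0, bcl2fastq 2.20.0 and Trimmomatic stand in the submitters' processing notes. No source used here states strandedness, read length or annotation version. The authors deposited raw read counts, TPM and FPKM per gene, and the 4 FPKM columns were not used. Of 6396 rows, 5995 were matched by locus tag to RefSeq's R64 annotation.

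Counts were filtered with filterByExpr (5890 genes) and tested with edgeR 4.0.16 (R 4.3.3), quasi-likelihood with TMM, genotype only, and a Benjamini-Hochberg threshold of 0.05. SEs were derived from each fitted log2 fold change and its F statistic. Alternatives were DESeq2 1.42.0, its size factors, library totals, no filter, a minimum mean count of 50, limma 3.58.1 on log2(TPM + 1) or log2(TPM + 0.1) for genes whose mean TPM reached 1, which understates changes of low genes, a replicate block, and leaving out each library. Fits were tested on simulated data. Within-library ratios used TPM and exact permutation tests. Counting error covers reads, not independent molecules.

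The members and lists were chosen with earlier results of these data known. Named were all members, THO2, up to 4 called genes with the smallest p per list and those called against its main direction, the nearest annotated neighbours, and the 5 genes nearest to the core histone mean among genes whose mean count reached 50. AIR2 and CAC2 were named after their values were seen. Of the 173 listed genes HDA3 was not analysed here.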

Additional observations from a re-analysis of the deposited data

How the results depend on the processing

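The 4 called histone genes were also 4 with median-of-ratios size factors, without a filter and with a minimum mean count of 50, and 5 with DESeq2. With copies summed 2 rows were called, with library totals 0, with limma 0 under each TPM pseudocount, and leaving out 1 library gave 0 to 9. The 2 called sums became 0 with library totals and 0 to 4 with 1 library left out. The lists had 45 calls with TMM, 16 with library totals, 14 with log2(TPM + 1) and 12 with log2(TPM + 0.1). With 1 library left out the lists had 5 to 91 calls. Each number counts all listed genes called under that setting, whether or not they were among the 45. Over all genes, 2237 calls became 1409 with log2(TPM + 0.1) and 500 to 3640 with 1 library left out. Library totals turned the sign for FLR1 (0.36), KTR5 (0.30), TBF1 (0.29), HTB1 (0.24), HHT2 (0.22), SIW14 (0.15), the H3 sum (0.10), the H2B sum (0.094), HTA2 (0.048), HTB2 (0.037), HTZ1 (0.035), IPP1 (0.020), ADA2 (0.013) and HHT1 (0.0078), all negative with TMM. With log2(TPM + 0.1) and log2(TPM + 1) the sign turned for FLR1 (0.37 and 0.34), TBF1 (0.27 and 0.25), HHT2 (0.25 and 0.25), KTR5 (0.24 and 0.22), HTB1 (0.23 and 0.23), SIW14 (0.094 and 0.089), HTB2 (0.085 and 0.085) and HTZ1 (0.0047 and 0.0041). These scalings differ from TMM in where the median of all genes lies. With 1 library left out the range crossed 0 for FLR1 (-0.29 to 0.23, positive without WT replicate 3 or tho2Δ replicate 3), HHT2 (-0.44 to 0.10) and the H2B sum (-0.56 to 0.0059), both positive without WT replicate 3, and KTR5 (-0.38 to 0.026, positive without WT replicate 4), and the cause was not tested. Raw counts in place of TPM left all 10 within-library differences within 1 SD.

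A replicate block, which treats libraries of equal number as pairs, called 3 members (HTA1, HHF1 and HHF2), against 4 without it, with 17.7% of all genes called lower and 2129 genes called in all. Deviations of same-numbered libraries correlated at -0.02, so that the numbers may be names only. The duplicates and a common coefficient of variation of 0.158 limit what can be called.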
